A study of Mus musculus with 12 samples.

Results

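Tight junctions seal the space between neighbouring epithelial cells. Their strands are built from claudins, membrane proteins that either close the gap or form ion-selective pores, and they are joined by occludin and other MARVEL domain proteins. Angulins mark the corners where cells meet, junctional adhesion molecules lie beside the strands, and cytoplasmic plaque proteins tie the strands to actin. In the cochlea these junctions keep the potassium-rich endolymph apart from the fluid around the hair cell bodies, and defects in Cldn14, in tricellulin (Marveld2) and in Ildr1 cause deafness.

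The members examined were 36 claudin and tight junction genes, named by symbol, out of 22869 gene symbols in the deposited table. They comprise 23 claudins and 13 other genes, and each gene is represented by its transcript row with the most reads. RNA-seq was done on whole cochlear epithelium of C57BL/6 mouse embryos at embryonic day 16.5, with 3 wild-type (Esrp1+/+, control) and 3 Esrp1-/- (knockout) embryos. Esrp1 is an epithelial splicing regulator. The pooled cochleae of each embryo gave 2 libraries, so the embryo is the replicate. The source of the Esrp1 allele is not given in the sources used here.

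Depth lay between 12547301 and 21568517 reads per embryo. Esrp1, the targeted gene, stood at 197, 102 and 118 CPM (reads scaled to library size, with TMM scaling between embryos) in controls 1 to 3, and at 27.2, 34.3 and 39.1 in knockouts 1 to 3. It fell by 2.05 ± 0.26 on the log2 scale (standard error; edgeR quasi-likelihood test, adjusted p = 0.0354). All 12 cochlear epithelium markers were detected, with a summed level of 3168 to 5598 CPM in controls and 3527 to 5980 in knockouts. The largest part of each sum came from Tecta (1539 to 2755 CPM in controls and 1699 to 3668 in knockouts). The sums do not show that each marker was unchanged. Gata3 was lower in every knockout than in any control (log2 difference of -0.79 ± 0.30; edgeR adjusted p = 0.869). Otoa was higher in every knockout (1.05 ± 0.30; edgeR adjusted p = 0.495), and the other markers overlapped. Mesenchyme markers (2659 to 3809 and 3400 to 3473 CPM), endothelial markers (262 to 509 and 241 to 410) and myelinating glia markers (773 to 1073 and 768 to 970) were also present. Most of the glial sum came from Sox10 (277 to 475 and 323 to 355 CPM) and Erbb3 (294 to 422 and 242 to 421 CPM). Knockouts 2 and 3 carried the Y-linked gene Ddx3y at 95 and 82 CPM, while the 3 controls and knockout 1 carried Xist at 1098 to 1808 CPM. Sex was therefore unevenly spread over the groups.

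Of the 27 members tested by edgeR, Cldn22 and Cldn24 rose in the knockout and none fell. Both are claudins of little studied function. The pair lies on chromosome 8 of GRCm38, the assembly that mm10 represents, with Cldn22 at chr8:47824482-47825475 and Cldn24 at chr8:47822143-47822805, both on the plus strand and 1676 bases apart. In GENCODE M21 each is a single exon. Their sequences are shown because they decide how far the reads of the pair can be told apart. The coding sequences begin with bases that often differ, given here from the start codon in pieces of 30 bases, 5′ to 3′, from the GENCODE transcripts. Capitals mark the bases at which the pair differs.
Cldn22 coding bases 1 to 30: atggGCttAGtcttcCgaacggcAaCgcaG
Cldn24 coding bases 1 to 30: atggCTttCAtcttcAgaacggcCaTgcaA
Cldn22 coding bases 31 to 60: GcGgCTgCActtCTGctCtcCCtgctggga
Cldn24 coding bases 31 to 60: TcAgTAgGGcttTCTctGtcATtgctggga
Cldn22 coding bases 61 to 90: tgggttTtaTccTGCCttacAaACtaCTtG
Cldn24 coding bases 61 to 90: tgggttCtaGccATTAttacCaCAtaTCtA

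From coding base 94 on, the pair is identical for 472 bases, up to coding base 565. That run is shown by its first and its last 30 bases, which hold no capitals because no base differs.
Cldn22 and Cldn24, coding bases 94 to 123: cactggaagaaccttaacttggagctgaac
Cldn22 and Cldn24, coding bases 536 to 565: gagggtgtgtgcttcactgtgcagcctgct

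The run lies at chr8:47824622-47825093 in Cldn22 and chr8:47822236-47822707 in Cldn24, and makes up 47.4% of the Cldn22 transcript and 71.2% of the Cldn24 transcript. Of 620 aligned bases 37 differed, 33 of them before the run and 4 after it, an identity of 94.0%. Among all 253 pairs of the 23 claudins, no pair shared a longer run. The neighbours Cldn6 and Cldn9 shared 37 bases at most, Cldn3 and Cldn4 shared 35, and the median over the pairs was 11. A read of 50 bases starting at any place would match both genes in 44.7% of positions in Cldn22 and 68.9% in Cldn24. With 100 bases the shares were 41.6% and 66.1%. Reads from the run cannot be assigned to either gene by sequence, so the rises of Cldn22 and Cldn24 are not independent results. How the authors' counting treated such reads is not given in the sources used here.

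Cldn22 stood at 14.2, 6.62 and 9.92 CPM in controls 1 to 3 and at 46.0, 47.3 and 56.5 CPM in knockouts 1 to 3. Each knockout lay more than 3 times above the highest control. Its level rose by 2.29 ± 0.26 on the log2 scale (95% interval 1.71 to 2.88; edgeR adjusted p = 0.0230). Cldn24 stood at 9.09, 5.398 and 9.21 CPM in controls and at 31.6, 33.1 and 42.1 CPM in knockouts, again with no overlap. Its log2 rise was 2.18 ± 0.24 (interval 1.64 to 2.71; edgeR adjusted p = 0.0196). With the reads of both added together as 1 gene, the rise was 2.24 ± 0.24 (edgeR adjusted p = 0.0158), a setting chosen after seeing the data. If reads of the shared run were counted in both genes, that sum holds them more than once. These levels come from a tissue with many cell types, so more cells that express a gene and more RNA per cell cannot be told apart.

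The calls are few in the whole table. Of 14717 genes tested, 0.0815% rose and 0.0679% fell past the threshold of 0.05. Among the 27 members tested, 2 rose and 0 fell, and the 2 rises are not independent results. The members were chosen with earlier results of these data known. These counts therefore do not measure whether the members rise more often than other genes. Cldn22 and Cldn24 were also the members with an unadjusted p under 0.05 (2 higher and 0 lower), beside 2.87% of all genes higher and 1.90% lower. Among the 27 tested, they alone had groups that did not overlap, beside 5.40% of all genes higher and 4.44% lower. DESeq2 called the same pair higher and no member lower, beside 0.677% of 15659 genes higher and 0.390% lower. The DESeq2 adjusted p was 1.99e-14 for Cldn22 and 1.79e-14 for Cldn24. The authors' deposited table lists an edgeR FDR of 3.69e-14 for Cldn22 and 4.23e-11 for Cldn24. The edgeR adjusted p was above 0.05 for both genes without control 3 (0.147 for Cldn22 and 0.122 for Cldn24), without knockout 1 (0.0861 and 0.0618), without knockout 2 (0.0994 for both) or without knockout 3 (0.107 and 0.101), with Xist as a covariate (0.0787 for both), and with the embryo number as a block (0.0668 and 0.0549). Their log2 rises then stayed between 2.01 and 2.34. Calls over the whole table fell in these fits as well. They were 0 of 14874 genes without control 3, 12 of 14942 without knockout 1, 0 of 14846 without knockout 2 and 4 of 15035 without knockout 3. With Xist 5 and with the block 6 of 14717 genes passed, against 22 in the main fit. Knockout 1, the knockout that shares Xist with the controls, had 46.0 CPM of Cldn22 and 31.6 CPM of Cldn24, against at most 14.2 and 9.21 in the controls. That is 1 embryo and no test of sex, which is partly confounded with genotype here.

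**Figure D1:**
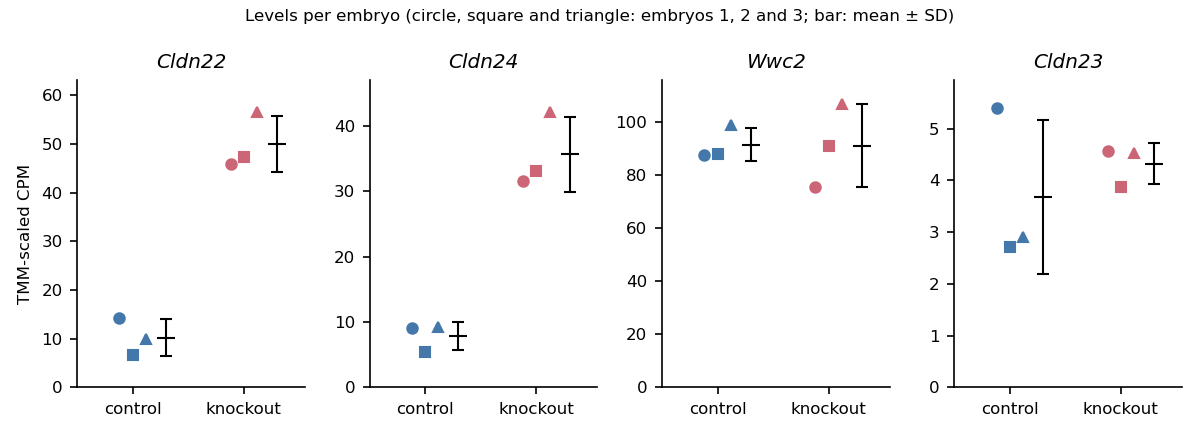
TMM-scaled CPM (y axis, from 0) of Cldn22, Cldn24, their neighbour Wwc2 and the further little studied claudin Cldn23 in each control and knockout embryo, with mean ± SD of 3 embryos. Cldn22 and Cldn24 separate the groups, whereas Wwc2 and Cldn23 overlap.

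The gene next to the pair is Wwc2, which encodes a scaffold protein related to KIBRA of the Hippo pathway and runs on the minus strand. In RefSeq it ends 606 bases from Cldn22, but the longer GENCODE model has a 3' UTR from 47823959 to 47828720 that covers Cldn22 on the other strand and ends 1153 bases from Cldn24. The reads and FPKM of the deposited Wwc2 row imply a length of 5437 bases, shorter than the 8678 bases of that GENCODE transcript. Wwc2 stood at 87.8, 88.002 and 98.9 CPM in controls and at 75.6, 91.2 and 106.8 CPM in knockouts. Its groups overlapped, with a log2 difference of -0.01 ± 0.15 (interval -0.35 to 0.34; edgeR adjusted p = 0.996). The libraries were made with a directional kit, and whether counting used strand is not given in the sources used here. Per read of Wwc2 there were 0.161, 0.0753 and 0.100 Cldn22 reads in controls and 0.608, 0.519 and 0.529 in knockouts. For Cldn24 these ratios were 0.103, 0.0613 and 0.0932 in controls and 0.418, 0.363 and 0.394 in knockouts. Both ratios were higher in every knockout than in any control.

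Markers of other cochlear cell types also differed between the groups, in lists chosen with earlier results of these data known. All 7 roof and Reissner membrane markers were higher in every knockout than in any control, beside 5.40% of all genes tested. Of these 7 markers, 1 passed the threshold (beside 0.0815% of all genes higher), the anion transporter gene Slc26a7 (log2 rise of 1.69 ± 0.22; edgeR adjusted p = 0.0354). Their summed level was 3098 to 6741 CPM in controls and 8446 to 10766 CPM in knockouts, but nearly all of it came from the otoconial protein gene Oc90 (3038 to 6619 and 8220 to 10497 CPM). Of 8 marginal cell markers of the stria vascularis, 3 fell (edgeR adjusted p = 0.0137 for Kcne1 and Esrrb, 0.0354 for Bsnd), beside 0.0679% of all genes tested. Bsnd was at 0 reads in knockouts 2 and 3. The 8 marginal cell markers summed to 406 to 616 CPM in controls and 323 to 372 CPM in knockouts, most of it from Slc12a2, Esrrb and Lmx1a. Lmx1a had a positive difference of 0.47 ± 0.22 that did not pass. All 7 pigment cell markers had negative differences with a median of -0.89. Of these, 5 had an edgeR unadjusted p under 0.05, beside 1.90% of all genes lower, and 0 passed the threshold. The sums of the 7 overlapped (138 to 226 CPM in controls and 74.5 to 150 in knockouts). Hair cell markers summed to 305 to 350 CPM in controls and 259 to 337 in knockouts, the largest part from Myo6 (196 to 221 and 167 to 183 CPM). Of these 8 markers, 4 had positive and 4 negative differences, and 0 passed by edgeR. Myo6 and Pou4f3 were lower in every knockout than in any control, beside 4.44% of all genes tested. Otof stood at 29.8 CPM in knockout 1, 1.99 and 1.13 CPM in knockouts 2 and 3, and 4.63 to 6.90 CPM in controls. No marker in these lists was at 0 in all embryos. The part of any of these cell types in the rise of Cldn22 and Cldn24 was not tested.

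The make-up of the claudin transcripts shifted with the pair. Levels between genes are compared as the deposited FPKM, which is per transcript length. Cldn22 and Cldn24 together held 4.22%, 4.12% and 5.67% of all claudin FPKM in controls 1 to 3, and 13.3%, 17.7% and 18.1% in knockouts 1 to 3. Their share was thus above the control range in every knockout. Cldn6 remained the largest component, with 37.9%, 37.1% and 35.5% in controls and 28.5%, 31.1% and 32.0% in knockouts. Cldn3, Cldn6 and Cldn9 together made up 61.1% to 68.1% in controls and 57.1% to 59.3% in knockouts. Summed claudin FPKM was 273, 171 and 194 in controls and 348, 252 and 287 in knockouts, and these sums overlapped. Shares within an embryo add up to the whole, so a larger share of the pair lowers the others. The shared run touches the FPKM of each gene of the pair. If its reads were counted in both genes, the combined share of the pair is too high.

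**Figure D2:**
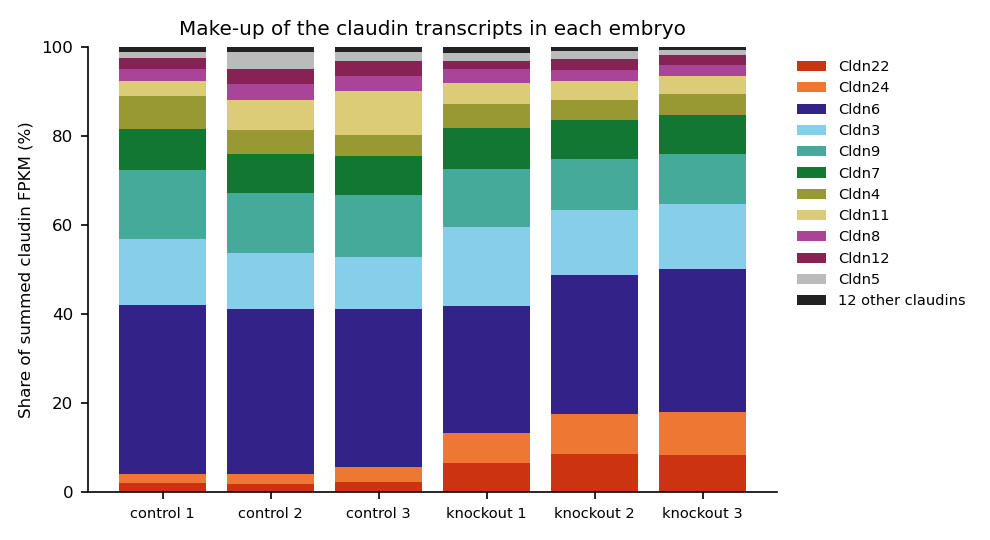
Share of summed claudin FPKM (y axis, %) held by each claudin in each embryo (x axis). The red and orange pieces at the base, Cldn22 and Cldn24, together reach 4.12% to 5.67% in controls and 13.3% to 18.1% in knockouts. Reads of their shared run may be counted in both pieces.

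Barrier claudins, which tighten the seal, gave the highest levels of all members, and 0 of the 11 tested passed the threshold by edgeR or DESeq2 or had an edgeR unadjusted p under 0.05. Their log2 differences ran from -0.80 to 0.66 with a median of 0.10, beside a median of 0.00 over all genes tested. Cldn6, a claudin of embryonic epithelia, had the highest mean of all 36 members at 84.2 FPKM. It stood at 381, 203 and 227 CPM in controls and 307, 259 and 322 CPM in knockouts. Control 1 was the highest of all embryos, the groups overlapped, and the log2 difference was 0.13 ± 0.23 (edgeR adjusted p = 0.994). Cldn9, whose loss in mice is known to cause deafness and which lies 137 bases from Cldn6 on chromosome 17 (chr17:23682584-23684026, Cldn6 at chr17:23679348-23682446), averaged 33.1 FPKM. Its CPM was 161, 77.9 and 92.0 in controls and 148, 99.7 and 119 in knockouts. Control 1 was again highest, and the log2 difference was 0.15 ± 0.27 (edgeR adjusted p = 0.994).

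Cldn3, a barrier claudin of many epithelia, averaged 37.6 FPKM, second to Cldn6. It stood at 125, 56.7 and 63.4 CPM in controls and 160, 102 and 125 CPM in knockouts. The groups overlapped only through control 1, which lay above knockout 2 and about level with knockout 3. The log2 difference was 0.66 ± 0.30 (interval -0.03 to 1.35; edgeR adjusted p = 0.994, unadjusted p = 0.0595). Without both embryos numbered 1, which leaves 2 against 2, it was 0.91 ± 0.11 and passed the threshold (edgeR adjusted p = 0.0122). That fit called more genes over the whole table, 0.735% of 14833 higher and 0.337% lower. Cldn7, which also acts at the basolateral membrane, averaged 22.8 FPKM, with 81.3, 41.2 and 48.2 CPM in controls and 86.0, 64.3 and 77.0 CPM in knockouts. Here too control 1 lay among the knockouts and controls 2 and 3 below them, with a log2 difference of 0.41 ± 0.25 (interval -0.15 to 0.98; edgeR adjusted p = 0.994).

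Among genes within 5 kb of these claudins, the antisense transcript Wbscr25 overlaps the end of Cldn3, and the table held 47 Wbscr25 reads over 6 embryos. Hcfc1r1 and Tnfrsf12a lie 3823 and 1898 bases from Cldn6. Hcfc1r1 differed by 0.15 ± 0.16 and Tnfrsf12a by 0.03 ± 0.35 on the log2 scale (edgeR adjusted p = 0.994 and 0.995). Neither difference passed the threshold.

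The other barrier claudins lay lower. Cldn4 averaged 13.7 FPKM and Cldn11, the claudin of strial basal cells and of myelin, 13.2 FPKM, with log2 differences of 0.10 ± 0.34 and -0.06 ± 0.25. Cldn8 and Cldn12 averaged 7.39 and 6.24 FPKM. Cldn5, the endothelial claudin, averaged 4.73 FPKM and stood at 11.7, 19.9 and 13.1 CPM in controls and 18.4, 15.4 and 9.61 CPM in knockouts, with overlapping groups. Cldn14, which hair cells and supporting cells use, had a mean of 0.759 FPKM. It stood at 5.52, 1.81 and 3.07 CPM in controls and 3.049, 1.02 and 1.94 CPM in knockouts, a log2 difference of -0.80 ± 0.52 that did not pass (interval -1.98 to 0.38; edgeR adjusted p = 0.994). Cldn1, at 0.195 FPKM, had an interval from -1.07 to 1.22, so a change of 2-fold in either direction was within its error. Cldn18 had 0 reads in every embryo and Cldn19, a claudin known from kidney and Schwann cells, had 53 reads in all (21, 5 and 7 in controls and 8, 9 and 3 in knockouts).

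**Figure D3:**
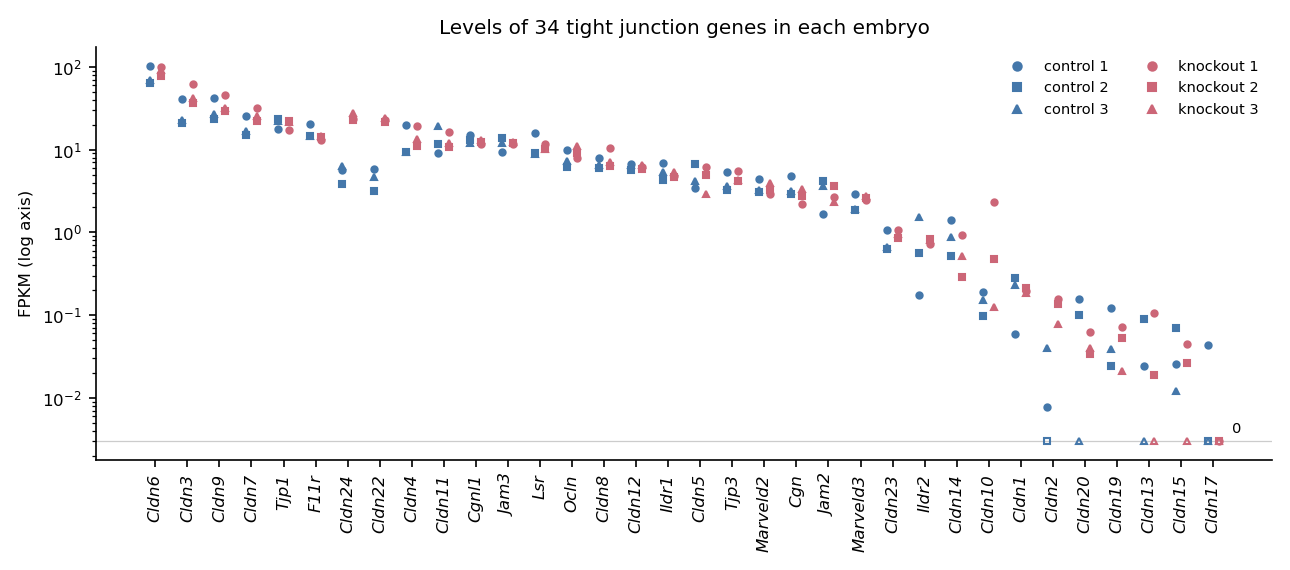
Deposited FPKM (y axis, log scale) of the 34 members with any read, ordered by mean, in each embryo. Open symbols on the line marked 0 are embryos with no read. Levels run from 84.2 FPKM for Cldn6 down to 0.00728 for Cldn17, and Cldn22 and Cldn24 are the pair of well-expressed genes whose groups separate.

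Pore-forming claudins, which let ions or water pass, were near the lower limit of detection, and 0 of 5 had enough reads for the test. Cldn10, which forms ion-selective pores in kidney and glands, was the highest of them at 0.556 FPKM, with 6, 4 and 5 reads in controls and 52, 16 and 4 reads in knockouts. Knockout 1 held most of these reads, and knockout 3 lay at the level of the controls. The depth-scaled ratio of summed reads was 5.81 (exact 95% interval 3.30 to 10.9, which covers counting error only), and DESeq2 gave an adjusted p of 0.281. Cldn2, the cation and water pore of kidney tubule and choroid plexus, had 1, 0 and 5 reads in controls and 13, 17 and 8 in knockouts. Each knockout was above every control, at 44 reads in all. The ratio was 7.67 (3.21 to 22.2), the DESeq2 adjusted p was 0.391, and the authors' deposited table lists a log2 fold change of 2.35 with an edgeR FDR of 0.0455. The 6 choroid plexus-type markers moved unequally, with sums of 130 to 238 CPM in controls and 177 to 281 CPM in knockouts. Of the 5 tested, Tmem72 (5.48 ± 0.45 on the log2 scale; edgeR adjusted p = 0.0137) and Mfrp (2.68 ± 0.31; 0.0255) rose, beside 0.0815% of all genes tested. The reads of Mfrp cannot be told apart from those of C1qtnf5, which has identical counts. Ttr was at 146 CPM in knockout 1, 23.5 and 24.4 CPM in knockouts 2 and 3 and 11.1 to 14.3 CPM in controls, and did not pass (edgeR adjusted p = 0.533). Kcnj13 differed by 0.17 ± 0.48 and Clic6 by -0.10 ± 0.30, with Clic6 lowest in knockout 1 at 105 CPM. Folr1 had 56 reads in all and was not tested. The part of such cells in the reads of Cldn2 and Cldn10 was not tested. Cldn16 had 0 reads in every embryo, Cldn15 had 13 reads in all and Cldn17 had 2.

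Of the claudins of little studied function other than the pair, Cldn23 averaged 0.877 FPKM. It stood at 5.39, 2.72 and 2.91 CPM in controls and 4.57, 3.87 and 4.54 CPM in knockouts, with control 1 highest and a log2 difference of 0.24 ± 0.33 (edgeR adjusted p = 0.994). Cldn13 and Cldn20 had 10 reads each over 6 embryos and were not tested. In all 9 members, each a claudin, were not tested, of which 6 had fewer than 20 reads.

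MARVEL domain proteins span the membrane beside the claudins, and 0 of 3 passed the threshold by edgeR or DESeq2 or had an edgeR unadjusted p under 0.05. Ocln (occludin) was the highest at 8.57 FPKM, with 83.8, 46.1 and 55.5 CPM in controls and 56.9, 70.2 and 90.2 CPM in knockouts. The groups overlapped widely and the log2 difference was 0.23 ± 0.24 (edgeR adjusted p = 0.994). Marveld2 (tricellulin, which seals the corners between 3 cells) averaged 3.48 FPKM and differed by -0.10 ± 0.23. Marveld3 averaged 2.42 FPKM and differed by 0.20 ± 0.25.

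Angulins recruit tricellulin to those corners, and 0 of 3 passed by either tool or had an edgeR unadjusted p under 0.05. Lsr was the highest at 10.98 FPKM. It stood at 88.2, 44.5 and 44.7 CPM in controls and 55.4, 52.1 and 56.7 CPM in knockouts. The knockouts lay close together between control 1 and the other controls, with a log2 difference of -0.11 ± 0.26 (edgeR adjusted p = 0.994). Ildr1 averaged 5.26 FPKM and differed by -0.22 ± 0.22. Ildr2, at 0.773 FPKM, stood at 3.51, 9.75 and 28.0 CPM in controls and 12.1, 15.2 and 15.4 CPM in knockouts. The controls spread far wider than the knockouts, and the interval of the difference ran from -1.28 to 1.38.

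Junctional adhesion molecules are immunoglobulin-type proteins beside the strands, and 0 of 3 passed by either tool or had an edgeR unadjusted p under 0.05. F11r (JAM-A) was the highest at 15.3 FPKM, with 125, 75.9 and 80.2 CPM in controls and 66.5, 77.6 and 84.5 CPM in knockouts. Control 1 stood above all others, knockouts 2 and 3 lay within the control range, and the log2 difference was -0.30 ± 0.20 (interval -0.76 to 0.17; edgeR adjusted p = 0.994). Jam3 averaged 11.9 FPKM and differed by 0.01 ± 0.14, with an interval of -0.30 to 0.33. Jam2, found on endothelial and other cells, averaged 3.02 FPKM and differed by -0.13 ± 0.29.

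Plaque proteins tie the strands to the cytoskeleton, and 0 of 4 passed by either tool or had an edgeR unadjusted p under 0.05. Tjp1 (ZO-1, the scaffold that binds claudin tails) was the highest at 20.8 FPKM. It stood at 337, 388 and 368 CPM in controls and 272, 379 and 390 CPM in knockouts. Knockout 1 was the lowest of all embryos and the groups overlapped, with a log2 difference of -0.07 ± 0.17 (interval -0.45 to 0.31; edgeR adjusted p = 0.994). Cgnl1 (paracingulin) averaged 12.8 FPKM and differed by -0.14 ± 0.17. Tjp3 (ZO-3) averaged 4.38 FPKM and Cgn (cingulin) 3.198 FPKM. Cgn had the lowest difference of these at -0.43 ± 0.28 (interval -1.06 to 0.20).

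Over the 27 members tested, 15 differences were positive and 12 negative, with a median of 0.05. Of the 25 that did not pass, 20 had a 95% interval that lay within 1 log2 unit of 0, so changes of 2-fold or more lie outside those intervals. For the other 5 (Cldn1, Cldn3, Cldn14, Ildr2 and Cgn) the interval reached past 1 log2 unit.

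**Figure D4:**
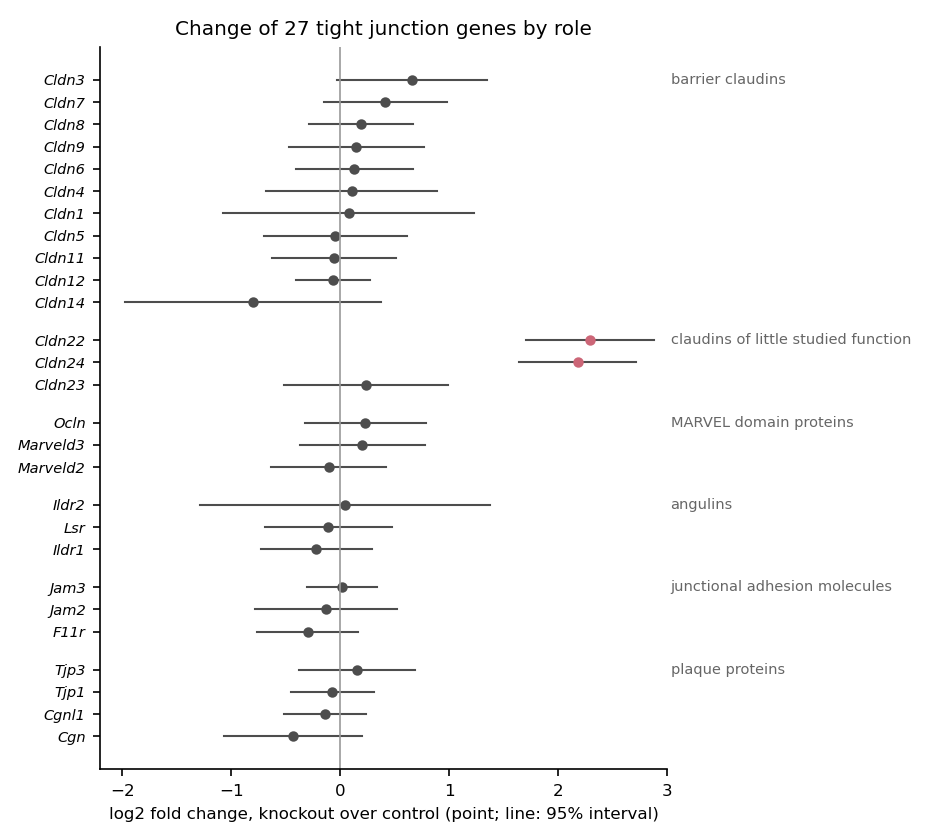
Log2 fold change of knockout over control (x axis, points) with 95% intervals (lines) for the 27 tested members, grouped by role. The red points, Cldn22 at 2.29 and Cldn24 at 2.18, passed the threshold. The other 25 points lie between -0.80 and 0.66.

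Control 1 stood apart from controls 2 and 3 in most members. It was the highest control for 19 of the 27 and the highest of all 6 embryos for 14. The median over members of its CPM, divided by the mean of controls 2 and 3, was 1.63. Lsr, Cldn6, Cldn9, Cgn and F11r were among the high ones. It was the lowest control for 7 members, Cldn1, Cldn5, Cldn11, Ildr2, Jam2, Jam3 and Tjp1. Epithelial genes moved the same way, with Cdh1 (E-cadherin) at 367 CPM in control 1 and at 200 and 256 CPM in controls 2 and 3. Endothelial markers summed to 262 CPM in control 1, the lowest control, against 509 and 356 CPM. Mesenchyme markers summed to 2659 CPM there, against 3391 and 3809 CPM. Fos, an immediate early gene that responds to handling, reached 153 CPM in control 1. Knockout 1 had 64.6 CPM of Fos, and the other 4 embryos had 1.00 to 7.27 CPM. The part of tissue make-up or handling in the members' levels was not tested.

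**Figure D5:**
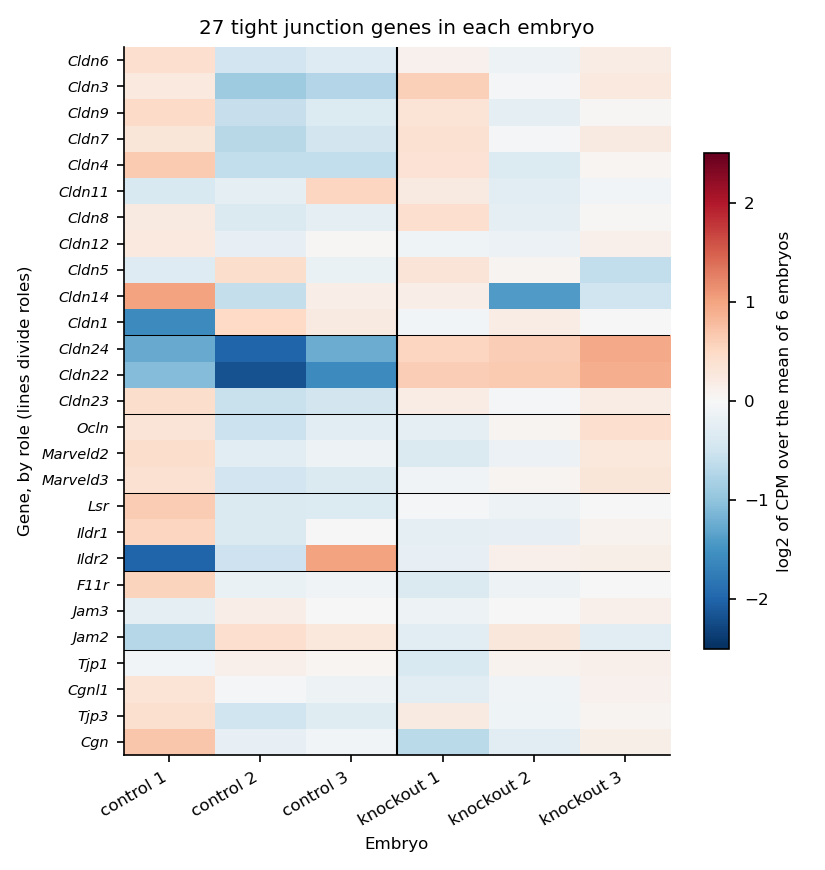
Each tested member's CPM in each embryo (columns) over its mean of 6 embryos, as log2 (colour; red high, blue low), in rows grouped by role. Control 1 is the highest of the 6 embryos for 14 of the 27 rows, and Cldn22 and Cldn24 are low in all 3 controls and high in all 3 knockouts.

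Of the wider junction pathway, 64 of 70 listed genes were tested and 0 passed the edgeR threshold. DESeq2 called 0 as well, and at an unadjusted p under 0.05 edgeR had 1 higher and 3 lower, beside 2.87% and 1.90% of all genes. In the list of junction partners and polarity proteins, 23 of 24 were tested, and the smallest p belonged to Pard3, a polarity scaffold (-0.20 ± 0.15 on the log2 scale), and Arhgef18, an activator of RhoA at junctions (0.15 ± 0.12). In the adherens junction list, 13 of 13 were tested, led by the nectin Pvrl3 (-0.39 ± 0.15) and E-cadherin, Cdh1 (-0.33 ± 0.25). In the desmosome list 9 of 10 were tested, led by Pkp4 (-0.57 ± 0.25) and Dsc3 (-1.16 ± 0.64). Among 23 claudin regulators, 19 were tested, led by the epithelial transcription factors Grhl1 and Klf4. Grhl1 stood at 9.40, 5.99 and 7.11 CPM in controls and 1.601, 3.54 and 4.003 CPM in knockouts. Every knockout was below every control, as in 4.44% of all genes tested, with a log2 difference of -1.28 ± 0.36 that did not pass (edgeR adjusted p = 0.494). Klf4 differed by 0.30 ± 0.13 (edgeR adjusted p = 0.994). Without both embryos numbered 1, 1 of the pathway genes passed, the P-cadherin gene Cdh3, in the fit that called 159 genes in all.

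Because Esrp1 acts on splicing, the shares of transcript rows were compared as well. The 36 members had 56 of 28644 rows, and 10 members had more than 1. For a pair of rows, the reads of the main row not held by a further row were taken as a net share of the main row. Of 1774 pairs over all genes, 0% passed the threshold by limma. The members gave 5 pairs in 4 genes, of which 0 passed and 0 had an unadjusted p under 0.05. The pairs of Cldn14, with 62 and 61 net reads, had nearly the same counts in each embryo and are not separate results. As 0% passed over all genes, the lack of calls among members does not show that their shares were unchanged. Marveld3 came nearest, with net shares of 32.4%, 39.3% and 29.7% in controls and 19.1%, 29.2% and 25.6% in knockouts. Every knockout lay below every control, but how many of all pairs separate in this way was not counted. The log2 odds difference was -0.65 ± 0.27 (limma unadjusted p = 0.0510, adjusted p = 0.921), on 433 net reads in all. The pairs of Cldn7, Marveld2 and Cldn14 differed by -0.05 to 0.16 in log2 odds. Exon exchanges that leave the net share unchanged would be missed.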

How the data were processed

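Reads per RefSeq transcript row were deposited by the authors as raw counts, 1 column per embryo, per the file headers. FPKM per embryo, and log2 fold changes with p-values and FDR, were made by the authors, per the file headers. The submitters' processing notes name edgeR and mm10, and give no aligner or counter. The other 15 value columns were not used. Rows of 1 gene share reads, so the row with most reads represented it. No row lacked a gene name.

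Counts were filtered (filterByExpr, minimum count 10), scaled by TMM and tested with edgeR 4.0.16's quasi-likelihood F test in R 4.3.3, with Benjamini-Hochberg adjustment over all genes and a threshold of 0.05. All 6 embryos entered 1 fit without covariates. A standard error is the size of a log2 difference divided by the root of its F value. Net row shares of pairs with at least 60 net reads (0.5 added) were tested with limma 3.58.1. DESeq2 1.42.0 was an alternative. Read numbers and ratio intervals cover counting error only. Positions are RefSeq on GRCm38. Sequences are from GENCODE M21.

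The members, lists and tests were chosen with earlier results of these data known. Given in full were members past the threshold, those with an unadjusted p under 0.05 and the 8 highest by mean FPKM; further the highest of each role, genes within 5 kb, and the pathway genes past the threshold or the 2 with the smallest p in each list. Other members are given by level, count or interval, and marker genes beside them were chosen after their values were seen.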

Additional observations from a re-analysis of the deposited data

How the results depend on the processing

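The count of members that rose was 2, and remained 2 with DESeq2, with RLE scaling and without the low count filter. It was 0 with the replicate block and 0 with Xist as a covariate, 1 when Cldn22 and Cldn24 were summed (by construction), and 3 without both embryos numbered 1, where Cldn3 joined the pair and 159 of 14833 genes passed, against 22 of 14717 with all 6 embryos. Leaving out 1 embryo at a time gave 0 to 2, and with 1 group at 2 embryos the fit pools the spread over the rest. Over the whole table those fits called from 0 genes (without control 3 or without knockout 2) to 30 genes (without control 1). Over 12 alternatives the log2 rise of Cldn22 ran from 2.05 to 2.65 and that of Cldn24 from 1.96 to 2.36. Members that fell and row shares past the threshold were 0 in every setting run. Pathway genes past the threshold were 0 except for 1 without both embryos numbered 1.

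Some small differences turned sign. Leaving out 1 embryo at a time gave -0.0396 (without control 2) to 0.459 (without control 1) for Cldn6, -0.0497 (without control 2) to 0.523 (without control 1) for Cldn9, and -0.169 (without knockout 3) to 0.0663 (without knockout 1) for Tjp1. Without both embryos numbered 1, F11r was 0.0446 and Tjp1 0.0136. None of these passed the threshold. The cause of these shifts was not tested.

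Embryos with the same number share the first part of a code in the labels, which do not say what it marks (litter, batch or day), and their deviations from the group means correlated by 0.08, 0.18 and 0.03. With the replicate block, Cldn22 had a log2 rise of 2.34 (edgeR adjusted p = 0.0668) and Cldn24 of 2.20 (0.0549), and 6 genes in all passed rather than 22. Control 1, control 3 and knockout 3 correlated best with an embryo of another number. The alternative that takes the longest transcript row was not run, because the table gives no length.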

Other observations

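Cldn22 reads per Cldn24 read were 1.56, 1.23 and 1.076 in controls 1 to 3 and 1.45, 1.43 and 1.34 in knockouts 1 to 3, and overlapped. Cldn3 reads per Cldn4 read were 1.31, 1.42 and 1.59 in controls and 2.06, 2.12 and 1.98 in knockouts. Every knockout lay above every control in this ratio of neighbouring barrier claudins on chromosome 5, and control 1 was the lowest embryo. Cldn6 reads per Cldn9 read were 2.36, 2.60 and 2.47 in controls and 2.07, 2.60 and 2.70 in knockouts, and overlapped. Of 5 such ratios computed, these were picked with their values in view, and none was tested.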
